A study of Mus musculus with 10 samples.

Results

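*Nrip1*, *Ncoa1*, *Ncoa2*, *Ncoa3*, *Ncor1*, *Med1*, *Ep300* and *Crebbp* encode proteins that work with estrogen receptor α (ERα) on DNA. These 8 coregulator genes were chosen by name, out of 21000 RefSeq coding genes. Every ERα peak lying in the body of a gene, or within 100 kb of any of its transcription start sites, was assigned to it. After peaks that overlapped by at least 1 bp had been merged over all libraries, 7 of 8072 regions belonged to these genes. Of the 8 genes, 4 had a region, a share near the 57.3% of all coding genes that had one, and *Nrip1* held 3 of the 7.

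ERα is a transcription factor that binds estrogen response elements, inverted repeats of a half-site, when it carries estradiol. A bound receptor recruits coregulators through short leucine-rich motifs. Coactivators acetylate histones or bridge to RNA polymerase, whereas corepressors bring deacetylases. Most coregulators reach DNA through such receptors, and a peak at one of their genes is a place where ERα was found at the gene of a partner. *Nrip1*, which encodes the ligand-dependent corepressor RIP140, is a well-known estrogen-induced gene in breast cancer cells.

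ChIP-seq measured ERα binding in the arcuate nucleus and the anteroventral periventricular nucleus (AVPV) of the hypothalamus of female C57BL/6 mice, which the study used as young adults. All animals were ovariectomised and carried a 2 cm implant of 17β-estradiol in sesame oil (0.1 mg/mL), were given estradiol benzoate (0.05 mg/kg) one week later, and were sampled 28 h after that injection. The groups differ in the nucleus alone, and no library without estradiol benzoate was analysed here. Chromatin of each nucleus was pooled and immunoprecipitated with the ERα antibody sc-543, giving 4 libraries per nucleus, and the animals behind each library are not named, so every SD and p-value is over libraries. An input library was made for each nucleus and was not used here.

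The arcuate lists held 3251 to 4079 peaks and the AVPV lists 2367 to 3347. A peak list holds no expression values, so neither the dissections nor the levels of the coregulators could be checked against marker genes. Arcuate 4 stood apart. Its similarity to the other arcuate lists, which is the share of their regions held in common, was 0.375 to 0.435, against 0.517 to 0.556 among those 3, and 0.345 to 0.382 to the AVPV lists. All 4 sites described here were also called without arcuate 4.

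A region was called a site of a nucleus where 2 or more of its 4 libraries carried a peak. By this rule 4 of the 7 regions were sites, of which 3 were sites of both nuclei and 1 of the AVPV alone. Of all 8072 regions, 54.4% were sites, and of all 4388 sites 48.8% were shared, 34.6% were of the arcuate alone and 16.6% of the AVPV alone. The other 3 regions each had a peak in 1 library, as did 41.5% of all regions. Only *Nrip1* and *Ncor1* had a site, so 2 of 8 genes, where 41.7% of all coding genes had one. These shares are a description of 8 genes and were not tested.

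**Figure D1:**
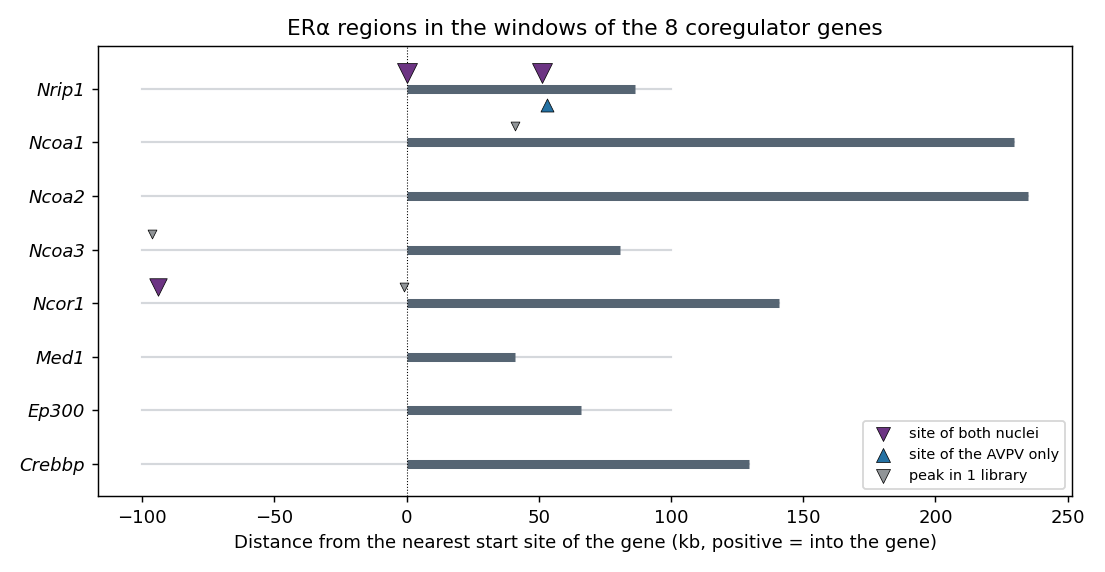
Regions with an ERα peak in the windows of the 8 coregulator genes, by distance from the nearest start site of the gene in kb (positive into the gene). Thick bars are gene bodies, thin lines the rest of the window, and triangles are larger with more libraries (1 to 8). *Nrip1* has 3 sites, *Ncor1* has 1 at 94.0 kb upstream, and *Ncoa2*, *Med1*, *Ep300* and *Crebbp* have no region.

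The sequences under the *Nrip1* peaks are shown because each held a match to the estrogen response element. The element is AGGTCA and TGACCT with 3 free bases between them, and was searched on both strands, allowing up to 2 mismatches among its 12 fixed bases, within 100 bp of the median summit. They are the plus strand of mm10, read from the RefSeq GRCm38.p6 assembly, and the match is in capitals. A match was found in 3 of the 4 sites at the 8 genes and in 36.3% of all 4388 sites, and in 5 of the 7 regions and 28.7% of all 8072 regions. The gene runs on the minus strand. The promoter stretch lies in the first intron of the transcript that starts at 76373827, next to its first exon at 76373770-76373827. It lies upstream of the other curated start, 76373049.
*Nrip1* promoter site, chr16:76373665-76373769: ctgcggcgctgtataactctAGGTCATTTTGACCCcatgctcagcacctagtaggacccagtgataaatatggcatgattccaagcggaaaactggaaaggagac
*Nrip1* intronic site, chr16:76321705-76321855: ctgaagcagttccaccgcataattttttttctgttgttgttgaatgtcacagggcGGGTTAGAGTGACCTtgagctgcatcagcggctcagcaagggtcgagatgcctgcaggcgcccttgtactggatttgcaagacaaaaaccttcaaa
*Nrip1* second intronic site, chr16:76319938-76320114: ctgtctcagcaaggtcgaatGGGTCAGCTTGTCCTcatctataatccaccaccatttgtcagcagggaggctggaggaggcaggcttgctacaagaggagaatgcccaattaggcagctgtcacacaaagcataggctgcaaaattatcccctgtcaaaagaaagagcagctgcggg

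*Nrip1* lies at chr16:76287403-76373827 on the minus strand, with 2 curated start sites at 76373827 and 76373049. Its 3 sites were more than most genes had: 5.44% of coding genes had at least 3. Of these, 2 had a peak in all 8 libraries, and 2.90% of coding genes had at least 2 such regions. Outside its window, the nearest regions lay 172 kb downstream, in 1 arcuate and 2 AVPV libraries, and 126 kb upstream, in 1 arcuate library.

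The strongest was the intronic site, chr16:76321333-76322133. It lies 51.3 kb downstream of the nearer curated start site, in the last intron of both curated transcripts, between the exons 76330746-76330864 and 76287403-76295015. A predicted *Nrip1* start, at 76330739, lies 8.96 kb from the median summit of this site. Peak strength is given as fold enrichment, the authors' ratio of reads over the local background, and as its percentile within the library's own list, because background was set list by list. Fold enrichment was 26.9, 18.0, 20.8 and 19.1 in arcuate 1 to 4 and 18.8, 24.3, 20.3 and 25.0 in AVPV 1 to 4. The matching percentiles were 98.4, 96.3, 96.9 and 96.2 in the arcuate and 95.1, 97.6, 95.7 and 97.8 in the AVPV. Every library thus placed this site among the strongest of its peaks, and the nuclei overlapped. The −log10 q-values ran from 52.3 in arcuate 4 to 115 in arcuate 1.

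The mean percentile was 96.9 ± 1.01 (SD, n = 4) in the arcuate and 96.6 ± 1.38 (n = 4) in the AVPV, and the difference of 0.358 was smaller than the spread of either (exact two-sided permutation test, p = 0.686, Benjamini-Hochberg adjusted p = 0.802 over the 1089 regions with a peak in all 8 libraries). The difference has no stable sign, since it was −0.613 when all lists were shortened to the same number of peaks. The lowest of its 8 percentiles, 95.1, was matched or exceeded by that of 6.34% of the 1089 regions. It ranked 68.

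At this intronic site the response element match, GGGTTAGAGTGACCT at chr16:76321760-76321774, departs from the palindrome at A1G and C5T, counted from 1 at its 5′ end with the palindrome's base first. Its left arm carries both changes and its right arm is a full half-site. Of the 555 regions with a peak in all 8 libraries that were not at promoters, 61.4% held a match with at most 2 mismatches. On the minus strand the right half-site is part of the 9 letters TCAAGGTCA at 76321769-76321777, an extended half-site of the kind that estrogen-related receptors and other monomeric nuclear receptors bind. This motif was searched after the sequence had been seen, overlaps the response element match, and was found within 100 bp of the median summit in 1.80% of those 555 regions.

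Summits at the intronic site lay close to the element. In the arcuate they lay 28, 14, 25 and 29 bp from its centre towards the *Nrip1* start, and in the AVPV −5, −4, 3 and 12 bp. The AVPV summits were all nearer to the element and the nuclei did not overlap, with a difference of 22.5 bp. By an exact two-sided permutation test p was 0.0286, the smallest that 4 against 4 allows, and the adjusted p was 0.819 over 1089 regions. Summits did not overlap in 2.57% of those regions, and 35.4% of them had a difference at least as large, so no difference between the nuclei is read from it. Summit positions were compared after they had been seen.

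**Figure D2:**
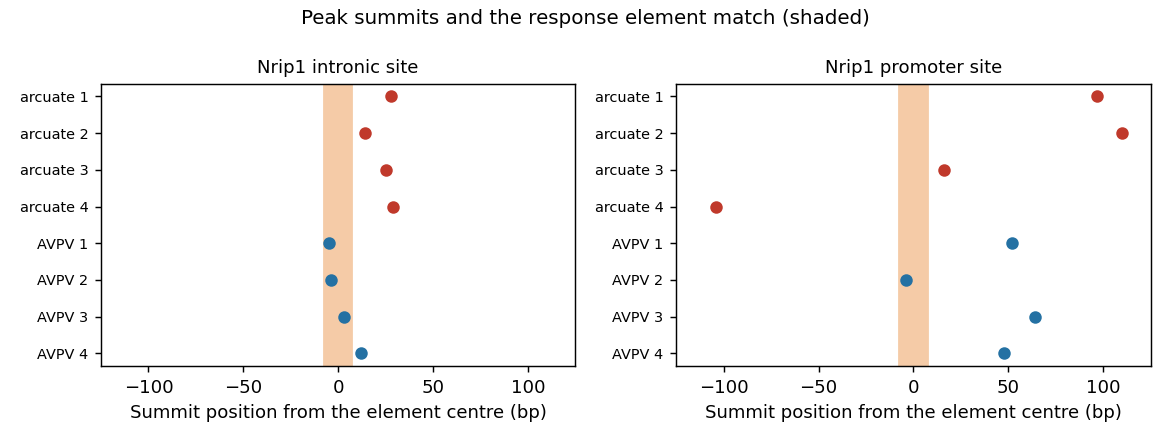
Summit of the peak in each library, in bp from the centre of the response element match (shaded, 15 bp wide; positive towards the *Nrip1* start), at the intronic and the promoter site of *Nrip1*. At the intronic site summits lie from −5 to 29 bp, and at the promoter site from −104 to 110 bp.

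The promoter site of *Nrip1*, chr16:76373183-76373985, spans the upstream start site, and its median summit was 85 bp downstream of it. Fold enrichment was 5.64, 8.61, 6.84 and 9.38 in arcuate 1 to 4 and 5.75, 7.51, 7.51 and 5.96 in AVPV 1 to 4. The percentiles were 40.7, 78.1, 58.5 and 82.5 in the arcuate and 40.4, 64.8, 68.4 and 44.7 in the AVPV. In contrast to the intronic site, the peak ranked near the middle of some lists and in the upper part of others, within both nuclei. The mean was 65.0 ± 19.2 (SD, n = 4) in the arcuate and 54.6 ± 14.1 (n = 4) in the AVPV, a difference of 10.4 that lay within the spread of the libraries (two-sided exact permutation test, p = 0.4, adjusted p = 0.597). Leaving out each library in turn, the difference ran from 4.52 without arcuate 4 to 18.4 without arcuate 1 (two-sided exact permutation test, p = 0.743 and 0.171).

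Over the 1089 regions, the nuclei's percentiles did not overlap in 21%, which is 14.2% higher in the arcuate and 6.8% higher in the AVPV. Shortening all lists to the same number of peaks moved the share of those higher in the arcuate from 67.7% to 44.7%. Neither *Nrip1* site was among them. No region reached an adjusted p of 0.05 in the permutation test, where the smallest was 0.136, although 229 regions had an unadjusted p of 0.0286. By limma on normal scores, 177 of 1089 regions passed, with neither *Nrip1* site among them (adjusted p = 0.800 for the intronic and 0.676 for the promoter site).

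In the 7 regions of the 8 genes, the closest match to the palindrome was at the promoter site, AGGTCATTTTGACCC at chr16:76373685-76373699. It lies 128 to 142 bp downstream of the upstream start site and has the single change T15C. Response elements were uncommon at promoters with a peak in all libraries. Of 534 such regions, 22 held a match with at most 2 mismatches, which is 4.12%, and 10 held one with at most 1, which is 1.87%. Away from promoters 31.7% of 555 held the latter. The other 9 promoters, listed after their values were seen, were nearest to the starts of *Ebag9*, *Gad2*, *Gpr3*, *Idnk*, *Lsamp*, *Mad2l1*, *Map2k7*, *Micos10* and *Mnt*. None of the 10 held a perfect palindrome. The peak at the *Nrip1* promoter was not strong for its kind, as its lowest percentile, 40.4, was matched or exceeded by 68.5% of the 534.

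Summits at the promoter were spread more widely than at the intronic site. They lay 97, 110, 16 and −104 bp from the element's centre in arcuate 1 to 4 and 52, −4, 64 and 48 bp in AVPV 1 to 4. Arcuate 4 was on the other side of the element from the rest of the arcuate libraries. AVPV 3 had a second, weaker peak in this region, at percentile 21.7 of its list.

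The second intronic site of *Nrip1*, chr16:76319790-76320151, lies 53.0 kb downstream of the nearer curated start. It had a peak in arcuate 2, at percentile 69.6 and a fold enrichment of 7.53, in AVPV 2, at 22.3 and 4.91, and in AVPV 3, at 14.7 and 4.38. It counts as a site of the AVPV alone by 2 libraries of 4 against 1 of 4, and the arcuate peak was the strongest. A difference of this size in peak calls gave p = 1 in a two-sided Fisher's exact test. Its response element match, GGGTCAGCTTGTCCT at chr16:76319958-76319972, carries A1G and A12T. The site was lost without AVPV 2 or AVPV 3, and where only peaks with a fold enrichment above 5 were counted.

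**Figure D3:**
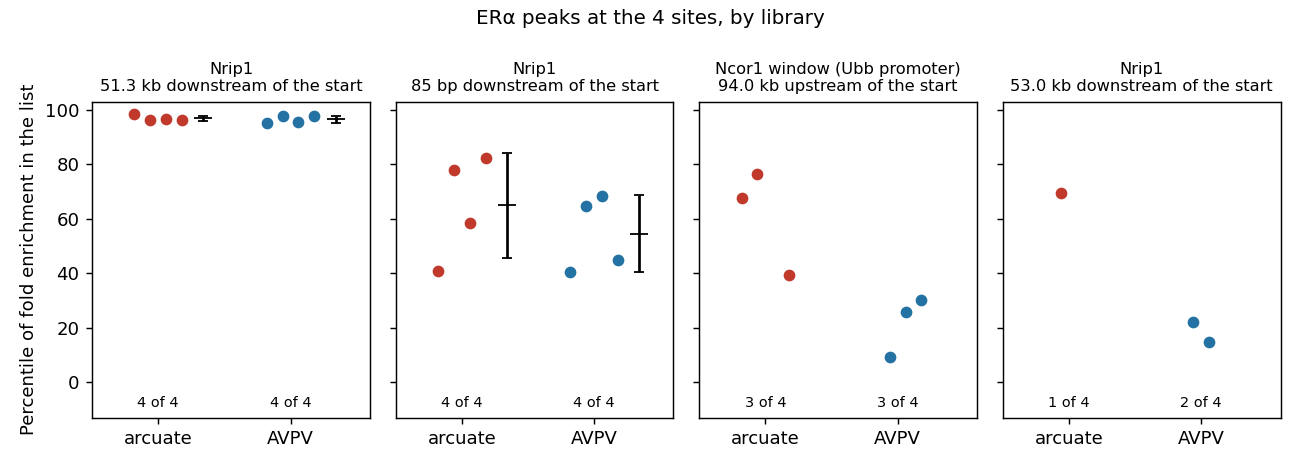
Percentile of fold enrichment within each library's list at the 4 sites, for arcuate (red) and AVPV (blue) libraries, with the number of libraries that had a peak. Bars are the mean ± SD of 4 libraries and are drawn only where all 8 had a peak. The intronic site of *Nrip1* sits between 95.1 and 98.4 and its promoter site between 40.4 and 82.5.

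Of the p160 coactivators, which bind the activated receptor directly and recruit histone acetyltransferases, none had a site. *Ncoa1*, which encodes SRC-1, had 1 region, an intronic peak 40.9 kb downstream of its start at chr12:4436124-4436377, called in arcuate 1 at percentile 70.0 and a fold enrichment of 7.95. That peak held both a response element match with the changes T4C and T10C and the AP-1 site TGACTCA, at chr12:4436307-4436313. AP-1 is the Fos and Jun dimer, to which ERα can be tethered. The motif TGANTCA was found in 6.34% of all regions. The sequence is shown because it is the only region of the p160 genes nearest to the start of its own gene.
*Ncoa1* intronic region, chr12:4436206-4436356: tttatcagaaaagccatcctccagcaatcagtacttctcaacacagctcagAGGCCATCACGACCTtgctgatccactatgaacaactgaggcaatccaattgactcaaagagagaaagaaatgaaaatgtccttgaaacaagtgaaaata

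*Ncoa3*, which encodes SRC-3 (AIB1) and is amplified in some breast cancers, had 1 region at the far edge of its window, chr2:165896430-165896617. It lay 96.2 kb upstream of *Ncoa3* and 11.6 kb from the start of *Zmynd8*, in arcuate 2 alone, at percentile 5.23 and a fold enrichment of 3.70. It held a response element match with A1C and T15C. *Ncoa2*, which encodes SRC-2 (GRIP1), had no region in its window of 335 kb, and the nearest one, in 2 arcuate libraries, was 429 kb from its start beside *Slco5a1*. Of 741 coding genes with a window within 20% of that length, 40.5% had a site.

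The corepressor gene *Ncor1*, whose product holds a histone deacetylase complex on receptors without agonist, had 2 regions, both at promoters of other genes. The site of both nuclei, chr11:62551123-62551548, lies 94.0 kb upstream of *Ncor1* at the promoter of *Ubb*, a ubiquitin gene, with its summit 177 bp from that start. It was called in arcuate 1, 2 and 4, at percentiles 67.5, 76.4 and 39.5, and in AVPV 2, 3 and 4, at 9.46, 26.0 and 30.3. The arcuate peaks ranked above the AVPV peaks, with 1 library of each nucleus lacking one, so the percentiles were not tested. Peaks were found in 3 of 4 libraries of each nucleus (Fisher's exact test, two-sided p = 1). No response element match was found within 100 bp of its summit.

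The second *Ncor1* region, chr11:62458335-62458526, was called in AVPV 3 alone, at percentile 17.4 and a fold enrichment of 4.54. It lay 1.13 kb upstream of *Ncor1* and 22 bp from the start of the neighbouring *Pigl*. Thus no region at *Ncor1* was nearest to its own start.

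Among the 8 genes, *Med1*, *Ep300* and *Crebbp*, which encode shared machinery, had no region, where 57.3% of all coding genes had one. Of the other Mediator genes, which belong to the wider set below, *Med4*, *Med14*, *Med16* and *Med17* had a site. *Med12*, *Med13* and *Med24* had none, and only the *Med17* site was nearest to its own gene's start. *Med1* encodes the Mediator subunit that binds nuclear receptors, and the nearest region was 165 kb from its start, at *Stard3*, with a peak in all 8 libraries. *Ep300* and *Crebbp* encode the paired histone acetyltransferases p300 and CBP. The nearest region to *Ep300* was 132 kb away beside *Rangap1*, in 2 AVPV libraries, and that to *Crebbp* was 206 kb away beside *Adcy9*, in 3 arcuate libraries. Read coverage was not analysed here, so binding below the limit of the peak calls cannot be seen at these genes.

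The 8 genes together held 4, 5, 2 and 3 peaks in arcuate 1 to 4 and 2, 4, 6 and 3 in AVPV 1 to 4. The mean was 3.5 ± 1.29 (SD, n = 4) in the arcuate and 3.75 ± 1.71 (n = 4) in the AVPV, and the nuclei overlapped. In percent of each library's list, the means were 0.0938 ± 0.0281 (SD, n = 4) and 0.130 ± 0.0457 (n = 4), again with overlap. *Nrip1* supplied at least 2 of these peaks in every library. No region at the 8 genes had a peak in all 4 libraries of one nucleus and none of the other. Of all regions, 2.95% did so, which is 2.13% for the arcuate and 0.818% for the AVPV. The smallest adjusted p by Fisher's exact test was 0.969, with 238 regions at the unadjusted 0.0286, the smallest this test allows here.

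**Figure D4:**
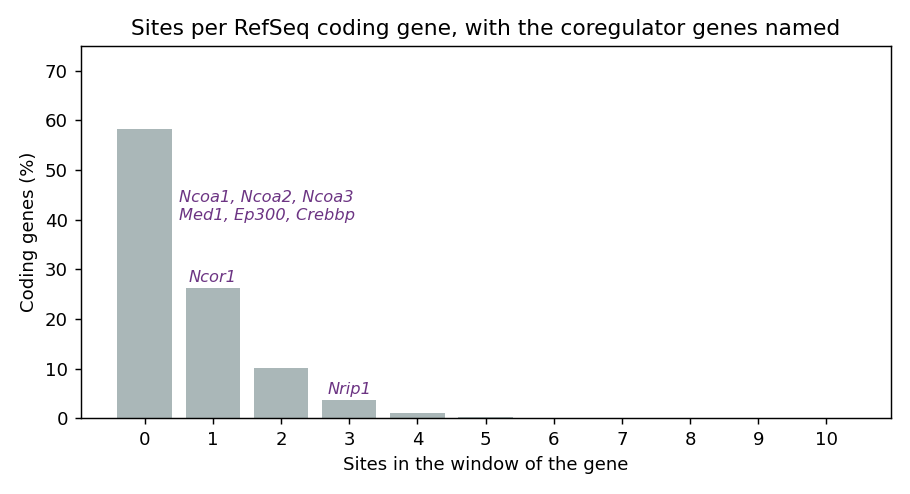
Percent of 21000 RefSeq coding genes by the number of ERα sites in their window, with the 8 coregulator genes named at their number. *Nrip1* is in the group with 3 sites, which holds 3.77% of genes, *Ncor1* in the group with 1, and the other 6 in the group with none, which holds 58.3%.

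As a wider set, 51 other genes for nuclear receptor coregulators, listed by function, were read in the same way. Of these, 34 had a site, which is 66.7% against 41.7% of all coding genes, and 19 had a region with a peak in all 8 libraries, which is 37.3% against 17.1%. Within 20 kb of a start, 18 of the 51 had a site, or 35.3% against 18.7% of all coding genes. A site nearest to the gene's own start was held by 10 of the 51, or 19.6%, against 13.9% of all coding genes. By nucleus, 28 had a site of both, 9 a site of the arcuate alone (17.6% against 15.9%) and 4 a site of the AVPV alone (7.84% against 8.3%). The windows of neighbouring genes overlap, so these genes are not independent, and nothing is called particular to the set.

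By peak calls or by percentiles the nuclei did not overlap at 7 of the 51, and no adjusted p of the exact tests was under 0.05. A peak in all 4 arcuate libraries and in no AVPV library was found in the windows of *Med16*, a Mediator subunit gene, and *Ppargc1b*, a coactivator gene of the PGC-1 family, which is 3.92% of genes against 2.38% of all coding genes. The *Med16* region, chr10:79865760-79866038, lay 43.1 kb downstream of the *Med16* start and 3.28 kb from that of *Mir6910*, the nearest start. Its median summit was in an exon, which was looked up over all genes and is not assigned to *Med16*. The percentiles were 38.5, 56.9, 38.4 and 52.1. The *Ppargc1b* region lay in an intron 68.6 kb downstream of its start, at percentiles 65.2, 58.0, 78.3 and 80.8. Both had the smallest p that Fisher's exact test allows here, 0.0286, and an adjusted p of 0.969.

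For 5 genes a region with a peak in all 8 libraries had percentiles that did not overlap, 9.80% of genes against 3.9%. These shares are over all genes, and a region with a peak in all 8 libraries was itself more frequent in the set (37.3% against 17.1%). Among all 1089 such regions 21% did not overlap, and 1 promoter counts for 2 of the 5 genes, so no excess is read from this. Of the 5, only the *Med17* region was at the gene's own promoter, 40 bp upstream of its start. It ranked higher in the arcuate, at 89.0, 83.4, 87.7 and 90.0, than in the AVPV, at 61.4, 80.2, 80.2 and 79.3, although these values overlapped with lists of equal length, with percentiles taken among the 1089 regions and with percentiles of −log10 q (difference 5.79 to 16.4, against 12.3). A region 78.8 kb upstream of *Med14*, which encodes the Mediator scaffold, was also higher in the arcuate, at 80.3, 45.0, 49.2 and 72.7 against 6.42, 27.0, 12.9 and 9.17.

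The remaining 3 were higher in the AVPV and at promoters of other genes. The *Tmem101* promoter in the window of *Hdac5*, a class IIa deacetylase gene, was at 63.9, 38.3, 22.9 and 16.7 in the arcuate and 88.5, 84.8, 92.7 and 92.9 in the AVPV. The *Yipf2* promoter falls in the windows of both *Carm1*, an arginine methyltransferase gene, and *Smarca4*, which encodes a chromatin remodelling ATPase. It was at 68.5, 48.4, 30.5 and 45.2 against 87.7, 76.3, 81.3 and 76.6. All of these had an exact permutation p of 0.0286 and an adjusted p of 0.136, so none passed. By limma on normal scores the *Tmem101* promoter (adjusted p = 0.00116), the *Yipf2* promoter (0.0104) and the *Med14* region (0.0211) passed and the *Med17* promoter did not (0.196). Each kept its direction under every scaling in which it had a value, though with percentiles of −log10 q the *Yipf2* promoter overlapped between the nuclei (difference −16.1 in place of −32.3) and the *Tmem101* difference was −28.4 in place of −54.2. With percentiles taken among the 1089 regions the *Med14* difference was 21.7 in place of 47.9. With lists of equal length the *Med14* region was not called in every library and had no value.

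The most sites were held by *Prmt1*, an arginine methyltransferase gene, with 4, all at promoters of neighbours, and then by *Psmc3* and *Smarca4* with 2 each. The sites of *Psmc3* and *Smarca4* were called in every library. *Psmc3* encodes a proteasome ATPase that also acts as a receptor coregulator. Its own site lay 154 bp downstream of its start, at 92.7, 97.2, 95.2 and 95.9 in the arcuate and 82.0, 88.0, 93.1 and 86.4 in the AVPV, which overlap.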

How the data were processed

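ERα ChIP-seq libraries of the arcuate and AVPV, 4 of each, were analysed as peak lists. Per the labels and the submitters' processing notes, the authors aligned single-end reads to mm10 with Bowtie2 2.5.0 and called peaks with MACS2 2.2.7.1, 1 list per library. Each deposited peak has a fold enrichment (the ratio to local background), a −log10 p-value, a −log10 q-value and an unused score. Read counts were not analysed here, so depth was not used and floors are not given.

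Peaks sharing at least 1 bp were merged. A region's position is the median of its libraries' summits. Percentiles are mid-ranks of fold enrichment within a list. Start sites came from 45756 curated RefSeq transcripts of GRCm38.p6, which no peak exceeded in chromosome length. A promoter began 1 kb before a start and ended 100 bp after it. Python 3.11.15, scipy 1.17.1, pysam 0.24.0 and limma 3.58.1 were used, and scripts were tested on simulated data. Calls were compared by Fisher's exact test over 8072 regions and percentiles by exact permutation over 1089, both adjusted by Benjamini-Hochberg.

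The members and lists were chosen with earlier results of these data known. All 8 genes and every site are described. Of the other 51, those with complete separation or non-overlapping percentiles and the 3 with the most sites are named. No 2 libraries shared an identical peak. No sequencing batch is named.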

Additional observations from a re-analysis of the deposited data

Results flagged for a closer look

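At the promoter site of *Nrip1*, the peak of arcuate 1 was 276 bp wide, against 620 to 662 bp in the other 3 arcuate libraries, and its gap to them was large for the range of the group. In the AVPV the widths were 293, 593, 345 and 587 bp. The percentile of arcuate 1 was also the lowest of the arcuate there, at 40.7. Among 18 groups of 4 values examined this was the only one so marked, and about 1 in 20 is marked by chance.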

How the results depend on the processing

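The 7 regions became 4 with the gene body alone and 4 where a region had to be nearest to the gene's own start. The 4 sites became 7 with 1 library enough and 2 with all 4 libraries needed. The count of arcuate-only sites, 0, became 2 with 1 library enough and 1 with fold enrichment above 5, which left the *Ubb* site to the arcuate. The 1 AVPV-only site fell to 0 with 3 or all 4 libraries needed, with fold enrichment above 5, with a −log10 q of at least 5 and with lists of equal length, and ranged from 0 to 1 when each library was left out, being 0 without AVPV 2 or AVPV 3. The 3 sites with a response element became 1 with at most 1 mismatch and 1 within 50 bp of the summit. Of the 51 other genes, 18 kept a site in a window of 20 kb. Regions separating the nuclei, 238 in all, rose to 490 without arcuate 4 and to between 276 and 328 without any other single library. With a library left out, fewer libraries have to meet the rule. Of the regions with non-overlapping percentiles, 67.7% were higher in the arcuate, against 44.7% with lists of equal length, 48.5% with percentiles among the 1089 regions and 76.5% by −log10 q. With lists of equal length the *Nrip1* promoter was not called in every library. Predicted start sites, added after seeing the data, left 7 regions and 4 sites. Same-numbered libraries did not vary together (correlations of deviations −0.213 to 0.0493), so the numbers do not pair the samples. With the replicate number as a block, the difference in peaks stayed at −0.25 per library, and limma called 119 of 1089 regions in place of 177, with 0 at the 8 genes. The block raised the limma adjusted p of the *Med14* region from 0.0211 to 0.0567 and changed no other named call. With 4 libraries per nucleus no adjusted p under 0.05 was reached by the exact tests. The causes of these changes were not tested.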
